A study of Mus musculus with 16 samples.

Results

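The response of cultured primary hepatocytes, the main metabolic cell of the liver, to 4 h of forskolin was examined. The cells came from C57BL/6 mice of 6 to 8 weeks of age. All cells of this comparison carried a control adenovirus, named GFP by the titles and shGFP by the design text. Of the 16 arrays in the series, 4 belong to it: 2 arrays of cells given forskolin for 4 h and 2 arrays of cells given the solvent DMSO for the same time. The groups set beside them were the control-virus cells at 2 h (2 forskolin and 2 DMSO arrays) and cells that had received an adenovirus with shRNA against Hdac4 and Hdac5, called shHDAC45 here, at 4 h (2 and 2 arrays). All groups had thus been infected with a virus, and no uninfected cells were analysed here. No label tells if both arrays of a group stem from separate cultures or animals, so every p-value below measures the spread between arrays, which may be technical. Nor do the sources used here give the doses of forskolin and virus.

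Forskolin activates adenylyl cyclase directly and so raises cyclic AMP, the second messenger of glucagon in the fasting liver. Cyclic AMP activates protein kinase A, which phosphorylates the transcription factor CREB and, through inhibition of salt-inducible kinases, lets the CRTC coactivators and the class IIa histone deacetylases enter the nucleus. The genes switched on in this way include those for glucose production and, as feedback, phosphodiesterases that degrade cyclic AMP and the kinase Sik1.

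RNA was hybridised to Illumina bead arrays of 24613 probes. On the 4 arrays the median probe intensity was 105.4 to 115.2 and 8763 to 9212 probes (35.6% to 37.4%) were above background, meaning a detection p under 0.01. Normalised signals are given on a log2 scale, on which a difference of 1 is a doubling of signal. The 2 forskolin arrays correlated at 0.992 across genes and the 2 DMSO arrays at 0.993, while arrays of different treatment correlated at 0.959 to 0.962. With 2 arrays a group the precision is limited, and the standard error (SE) of a difference had a median of 0.13 over genes. Of the 13 hepatocyte marker genes on the array 8 were above background on all 4 arrays, among them Apob, Ahsg, Ttr, Apoa1 and the liver transcription factor Hnf4a. Alb, Fgb, Asgr1 and Cyp2e1, which also mark hepatocytes, had no probe above background on any of the 4, and why was not tested.

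Forskolin changed the signal of about as many genes downward as upward, but the largest differences were rises. Of 7746 genes tested, 2481 (32.0%) passed at a limma adjusted p under 0.05, 1112 higher (14.4%) and 1369 lower (17.7%) under forskolin. Genes that rose were 44.8% of these, and 30.7% of the 2089 called when arrays were scaled by the median of all probes, a setting chosen after seeing the data that moved the median of all genes from -0.0059 to -0.089. An unadjusted p under 0.05 was reached by 3280 genes. The fitted difference was 4-fold or more for 56 of the genes that rose and 30 of those that fell, and 2-fold or more for 206 and 268. A further view of the size of the response is detection. For 113 of the genes that rose neither DMSO array was above background and both forskolin arrays were, and for 73 of the genes that fell the reverse held. The forskolin and DMSO arrays did not overlap for any of the 2481 genes, nor for 5005 of the 7746 genes as a whole. Where arrays of a called gene are said below to lie apart, that describes the values and adds nothing to the test. Bulk arrays cannot tell fewer cells of a kind from less RNA per cell, here or in any result below.

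**Figure D1:**
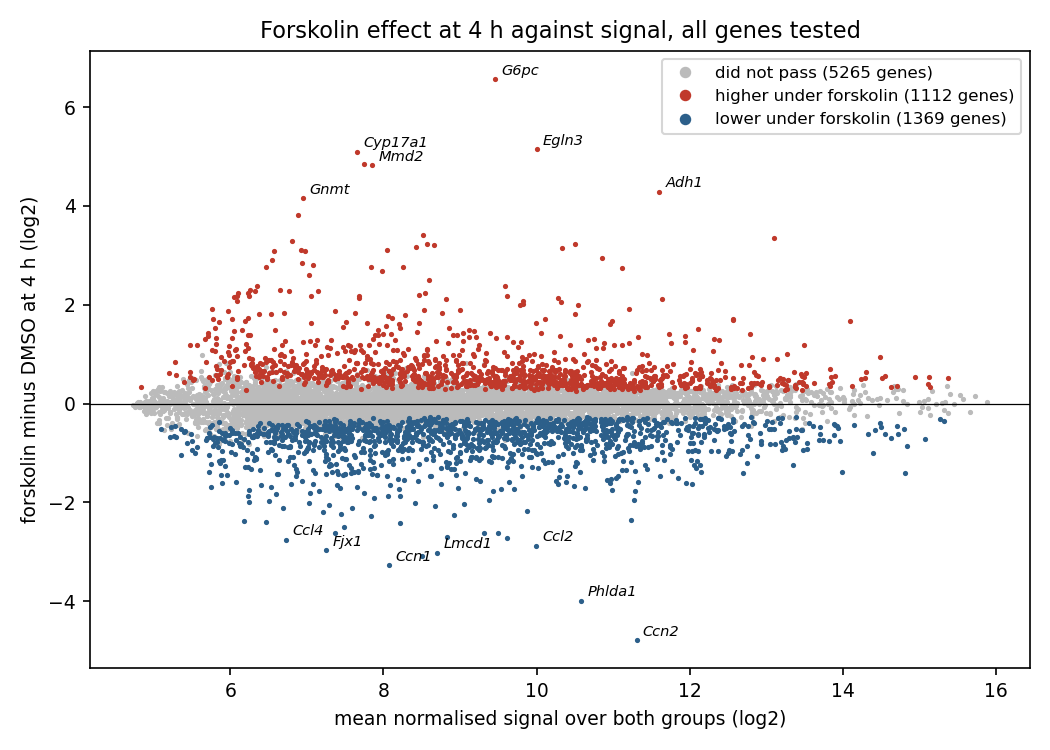
Difference between the 2 forskolin and 2 DMSO arrays at 4 h (log2, vertical axis) against the mean normalised signal over both groups (log2, horizontal axis) for each of the 7746 genes tested, with the genes past the test in red (1112 higher) and blue (1369 lower). The largest rises, such as G6pc at 6.57, lie farther from 0 than the largest falls, such as Ccn2 at -4.78.

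The genes of glucose production rose, led by the enzyme that releases free glucose. G6pc, the catalytic subunit of glucose-6-phosphatase, stood at 12.79 and 12.70 on the forskolin arrays and at 5.99 and 6.37 on the DMSO arrays, where it was not above background. Its 2 groups lay far apart, and its signal was at least 69.1-fold higher under forskolin (limma adjusted p = 1.1e-11). No other gene tested had a larger difference. Fbp1, the fructose-1,6-bisphosphatase that acts upstream of it, stood at 9.87 and 9.88 against 7.76 and 7.75, a 4.34-fold rise (log2 2.12, SE 0.14, limma adjusted p = 1.4e-07). Pck1, which makes phosphoenolpyruvate and is the textbook target of cyclic AMP in this pathway, was dim: 7.10 and 6.72 under forskolin against 5.01 and 5.04 under DMSO, where neither array was above background. The groups were apart, and the rise was at least 1.21-fold (limma adjusted p = 1e-05).

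Enzymes that feed the pathway rose as well. Gpd2, the mitochondrial glycerol-3-phosphate dehydrogenase, rose 3.97-fold (10.69 and 10.88 against 8.79 and 8.80, limma adjusted p = 9.4e-08). The malate dehydrogenases, which carry oxaloacetate out of the mitochondrion as malate, rose 2.54-fold for the mitochondrial Mdh2 (limma adjusted p = 0.0015) and 2.12-fold for the cytosolic Mdh1 (limma adjusted p = 0.0021). The arrays of Mdh2 stood at 12.13 and 11.87 against 10.99 and 10.33, and those of Mdh1 at 9.34 and 8.88 against 8.24 and 7.81, so the spread within a group was wide but the groups did not overlap. Aqp9, the channel by which hepatocytes take up glycerol, went the other way and fell 1.59-fold (log2 -0.67, SE 0.11, limma adjusted p = 0.00037). Pyruvate carboxylase, Pcx, was above background on 1 array of each group and gave -0.03 (limma adjusted p = 0.95). In all 8 of the 18 gluconeogenic and substrate-supply genes tested rose (44.4%, against 14.4% of all genes) and 1 fell (5.56%, against 17.7%), with a median difference of 0.33, or 0.28 with genes below background at their bound, against -0.0059 over all genes. Of 23 genes on that list 20 had a probe on the array and 18 passed the filter on dim signals.

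The arm that senses and limits cyclic AMP rose broadly. Ppargc1a, a coactivator of the glucose production genes, stood at 8.40 and 8.56 under forskolin against 5.18 and 5.56 under DMSO, below background there, and was at least 3.58-fold higher (limma adjusted p = 3.8e-08). Sik1, the kinase that phosphorylates CRTC coactivators and class IIa deacetylases and keeps them in the cytoplasm, rose at least 1.87-fold (7.47 and 7.60 against 5.11 and 5.19, limma adjusted p = 7.3e-07), and its relative Sik3 rose 2.64-fold (limma adjusted p = 0.00055). Nr4a2, an orphan nuclear receptor of the early cyclic AMP response, rose at least 2.41-fold (limma adjusted p = 2.4e-09), and Crem, whose short product is a repressor of cyclic AMP targets, rose 4.57-fold (9.63 and 9.50 against 7.42 and 7.32, limma adjusted p = 1.6e-07). A second Crem probe did not pass (log2 -0.07), so the rise was not seen by both probes of the gene.

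The phosphodiesterases, which break cyclic AMP down, moved in 1 direction; they, Sik3 and Tob1 were named after their values were seen, to complete the list. Pde10a rose 5.65-fold (9.74 and 9.95 against 7.21 and 7.48, limma adjusted p = 1.6e-08), and Pde4d rose at least 3.13-fold (8.38 and 8.19 against 5.78 and 6.25, below background under DMSO, limma adjusted p = 1.3e-06). Both pairs of arrays were clearly apart. Pde8a, 2.54-fold, Pde3b, 2.09-fold, and Pde4a, dim and without a usable bound, also passed upward, as did Pde4b, which lay below background in both groups. Pde7a, at 0.41 (limma adjusted p = 0.088), was the phosphodiesterase of the list that was tested and did not pass. Dusp1, a MAP kinase phosphatase, rose 3.21-fold to 13.35 and 13.47, and the antiproliferative Tob1 rose 1.87-fold. The one member that fell was Pkia, an inhibitor protein of protein kinase A (1.72-fold lower, limma adjusted p = 0.0011). With the DMSO arrays of 2 h as control Pkia gave -0.35 (limma adjusted p = 0.075) and Pde4b 0.65 (limma adjusted p = 0.10). Of 18 cyclic AMP feedback genes tested, out of 27 on the list, 13 rose (72.2%) and 1 fell (5.56%), with a median of 1.30, or 1.10 with bounds and 1 gene below background in both groups left out. Per1 (-0.35, limma adjusted p = 0.19) and Fosl2 (-0.20, limma adjusted p = 0.24), early cyclic AMP targets elsewhere, did not pass at 4 h. At 2 h in control-virus cells Fosl2 had risen by 2.93 (limma adjusted p = 1.4e-09). Nr4a1, the relative of Nr4a2 most often cited in this response, was on the array but too dim to be tested, as were Tat, Cpt1a, Ppara and Srebf1 of the fasting and feeding programmes.

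Upstream of these genes the machinery moved less. Adcy9, an adenylyl cyclase that responds little to forskolin itself, rose 3.47-fold (9.22 and 9.15 against 7.32 and 7.46, limma adjusted p = 9.9e-06). Gnas, the stimulatory G protein subunit, rose 1.53-fold (limma adjusted p = 0.0034), and Creb3l3, a fasting-induced transcription factor of the liver, rose 1.81-fold (limma adjusted p = 5.9e-05). The coactivator gene Crtc2 fell 1.51-fold (limma adjusted p = 0.0079), with 1 of the 2 forskolin arrays above background. Without DMSO array A or without forskolin array A its adjusted p was 0.074 and 0.094. The other 10 of 14 effector genes tested did not pass, among them the protein kinase A subunits Prkaca, Prkacb, Prkar1a, Prkar2a and Prkar2b, which gave differences between 0.02 and 0.42, and Creb1, which was below background in both groups. The 3 rises were 21.4% of the list and the 1 fall 7.14%, against 14.4% and 17.7% of all genes.

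Promoter letters were read for these genes because CREB binds a palindrome of 8 bases, TGACGTCA, and, less firmly, its shorter site TGACG. Of the 7746 genes 6343 had a promoter in the RefSeq table of the build GRCm38.p6, 250 bases before to 50 after a start. The palindrome was in the promoter of 3.61% of these genes, in 4.05% of those that rose, in 2.91% of those that fell and in 3.69% of those that did not pass. The shorter site, searched on both strands and part of the palindrome, was in 36.2% of all, in 39.5% of those that rose and in 34.1% of those that fell. Among genes that rose with a fitted log2 of 2 or more it was in 12 of 44 promoters (27.3%). Of the feedback genes 10 of 13 held it (76.9%). The feedback genes were chosen for their role in the cyclic AMP response and counted whether or not they rose. Their share thus does not describe the genes that rose. A match describes letters and not binding, and genes without one in this window were not examined further. The 6 sequences below were taken by size of difference from the named genes past the test that hold the palindrome before a start. They include genes that rose and genes that fell, but chosen in this way they do not show how it is spread between them. Each is 100 bases, 5′ to 3′ on the gene's strand, with the palindrome in capitals.
Lmcd1, fell, chr6:112273582-112273681, plus strand: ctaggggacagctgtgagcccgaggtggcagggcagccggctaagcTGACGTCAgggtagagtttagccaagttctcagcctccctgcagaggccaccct
Slc25a25, rose, chr2:32424163-32424262, minus strand: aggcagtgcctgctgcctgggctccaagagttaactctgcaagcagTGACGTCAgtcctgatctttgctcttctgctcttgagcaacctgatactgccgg
Cdkn2b, fell, chr4:89311033-89311132, minus strand: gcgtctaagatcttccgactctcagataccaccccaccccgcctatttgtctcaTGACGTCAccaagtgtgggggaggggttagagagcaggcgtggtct
Dusp1, rose, chr17:26508562-26508661, minus strand: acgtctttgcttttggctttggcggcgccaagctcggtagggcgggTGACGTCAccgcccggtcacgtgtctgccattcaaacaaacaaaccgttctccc
Plk2, fell, chr13:110394936-110395035, plus strand: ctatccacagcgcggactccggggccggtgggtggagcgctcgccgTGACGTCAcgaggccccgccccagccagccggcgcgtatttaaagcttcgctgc
Mdh2, rose, chr5:135778476-135778575, plus strand: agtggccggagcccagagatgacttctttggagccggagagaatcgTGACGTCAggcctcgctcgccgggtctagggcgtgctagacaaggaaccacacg

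Of these 6, Slc25a25, a calcium-regulated carrier of ATP-magnesium and phosphate in the mitochondrial membrane, rose 4.72-fold (9.64 and 9.70 against 7.42 and 7.44, limma adjusted p = 9.6e-09). The palindrome began 150 bases before an annotated start of Slc25a25 and 143 bases before that of Dusp1. In Lmcd1, a LIM-domain cofactor, it began 130 bases before the start, and the signal fell 8.08-fold (7.32 and 7.08 against 10.20 and 10.23, limma adjusted p = 1.9e-09). In Cdkn2b, a cyclin-dependent kinase inhibitor, and Plk2, a stress-responsive kinase, it began 46 and 62 bases before the start, and the falls were 3.40-fold (limma adjusted p = 1.4e-07) and 2.75-fold (limma adjusted p = 1.1e-07).

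Beyond glucose production the largest rises were in genes of several kinds. Egln3, a prolyl hydroxylase that marks hypoxia-inducible factor for destruction, stood at 12.64 and 12.50 under forskolin against 7.54 and 7.31 under DMSO, 35.4-fold higher (limma adjusted p = 2.9e-11). The DMSO arrays of 2 h held Egln3 at 9.30 and 9.10, and against those the log2 difference was 3.37 (limma adjusted p = 4.3e-10) and not 5.15. Cyp17a1, the steroid 17-hydroxylase, went from below background to 10.10 and 10.32, at least 11.9-fold higher (limma adjusted p = 3.3e-11). Etnppl, which breaks down phosphoethanolamine, also rose from below background, to 10.30 and 10.04 and at least 11.6-fold (limma adjusted p = 6.7e-10). No DMSO array of these 3 genes came near a forskolin array. Mmd2, a membrane protein of the progestin and adipoQ receptor family, rose at least 12.4-fold, and Ddc, aromatic amino acid decarboxylase, rose 9.32-fold to 12.02 and 12.20. Sgk1, a kinase activated downstream of PI3 kinase, rose 10.2-fold and reached 14.77 and 14.78, near the top of the scale (limma adjusted p = 3.6e-10). Fam222a, a gene of little known function, rose 10.6-fold, and the tubulin Tuba8 rose at least 3.51-fold from below background.

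**Figure D2:**
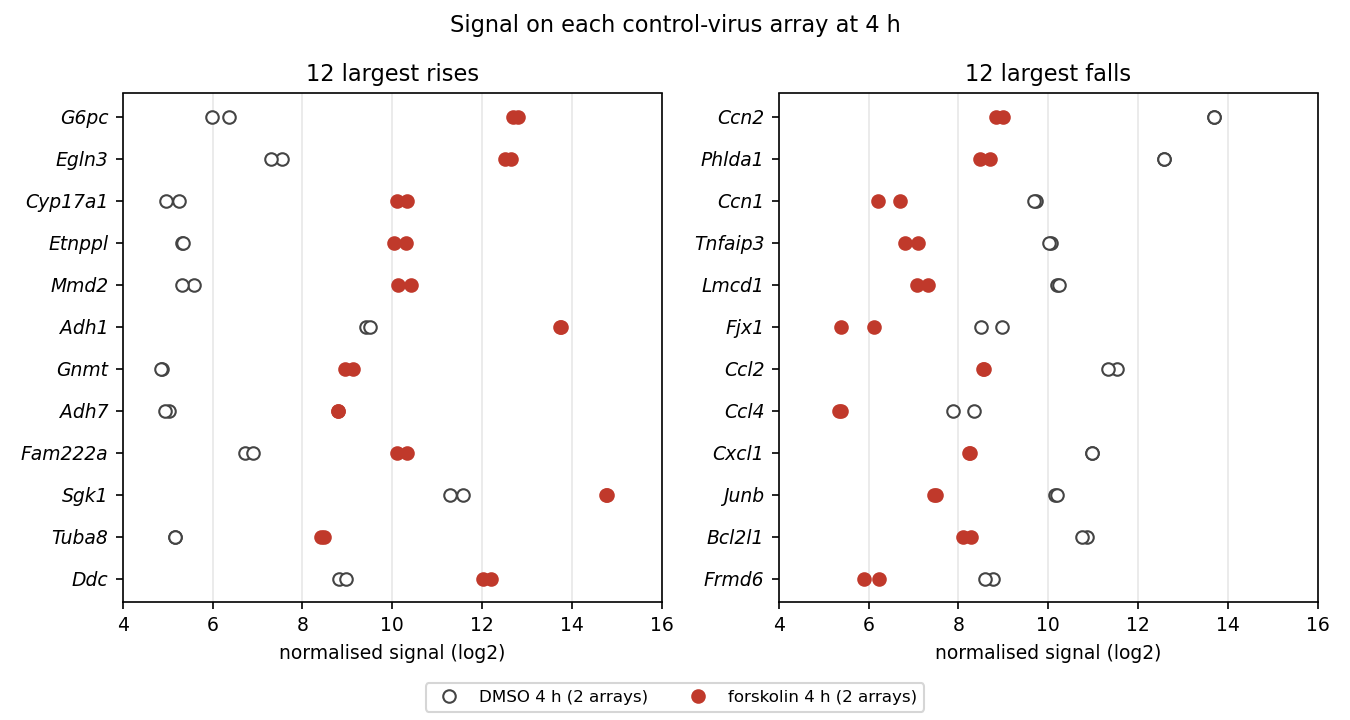
Normalised signal (log2, horizontal axis) of the 12 genes with the largest rises and the 12 with the largest falls on each of the 4 arrays, DMSO open and forskolin filled. The 2 arrays of a group lie close together for most genes, as for Adh1 at 13.75 and 13.74 under forskolin, and the widest pair is that of Fjx1 under forskolin, at 6.13 and 5.39.

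Enzymes that oxidise alcohols and aldehydes rose in 11 of 22 cases (50%), and 2 fell (9.09%; median 0.41). Adh1, the main hepatic alcohol dehydrogenase, rose 19.5-fold, from 9.42 and 9.50 under DMSO to 13.75 and 13.74 (limma adjusted p = 3.6e-10). Adh7, which also acts on retinol, rose at least 4.46-fold from below background (limma adjusted p = 3.3e-10). The aldehyde dehydrogenases Aldh1b1, 4.50-fold, and Aldh1a7, 4.19-fold, followed, and the retinal-oxidising Aldh8a1 rose at least 1.40-fold. Adh5, the formaldehyde-glutathione dehydrogenase, rose 1.70-fold. The members that fell both make retinal: the retinol dehydrogenase Rdh10 (1.62-fold, limma adjusted p = 0.0046) and the carotene oxygenase Bco1 (1.70-fold, limma adjusted p = 0.015). The limma adjusted p of Bco1 was 0.16 without DMSO array B, 0.090 without forskolin array B and 0.76 against the DMSO arrays of 2 h. That of Rdh10 was 0.052 without DMSO array A, and against the DMSO arrays of 2 h Rdh10 gave -1.64 (limma adjusted p = 4.3e-06).

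Methionine and one-carbon metabolism showed large rises in a few genes. Gnmt, which consumes S-adenosylmethionine to methylate glycine, rose at least 5.24-fold (9.12 and 8.94 against 4.88 and 4.86, limma adjusted p = 1.3e-10). Bhmt2, a homocysteine methyltransferase, rose 9.32-fold (10.17 and 10.20 against 6.84 and 7.09, limma adjusted p = 1.9e-08), Dmgdh, which oxidises dimethylglycine, at least 3.31-fold, and Cbs, which commits homocysteine to cysteine synthesis, 4.54-fold (10.66 and 10.74 against 8.53 and 8.50, limma adjusted p = 4e-06). In each the groups were apart. Nnmt, which methylates nicotinamide, rose 3.26-fold to 13.33 and 13.51. Gamt, which uses the same methyl donor to make creatine, fell 2.09-fold (limma adjusted p = 3.2e-05), and Csad, an enzyme of taurine synthesis, fell 1.64-fold (limma adjusted p = 0.00059). Over the 28 genes tested 9 rose (32.1%) and 4 fell (14.3%), with a median of 0.16. Mat1a, the liver form of the enzyme that makes the methyl donor, rose 1.57-fold against the DMSO arrays of 4 h and gave -0.07 (limma adjusted p = 0.67) against those of 2 h, as Csad gave 0.10 (limma adjusted p = 0.56).

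Amino acid breakdown and the urea cycle followed, with 8 of 20 genes higher (40.0%), 0 lower and a median of 0.32, or 0.26 with bounds. Ass1, argininosuccinate synthase of the urea cycle, stood at 12.21 and 12.11 against 10.27 and 10.22 and rose 3.78-fold (limma adjusted p = 6.9e-09). Aldh4a1, which completes proline breakdown, rose 5.21-fold (10.61 and 10.95 against 8.35 and 8.46, limma adjusted p = 5.7e-08). The lysine-degrading Aass rose 2.71-fold, Nags, which makes the activator of the urea cycle's first step, 2.13-fold, and the glycine decarboxylase Gldc 1.67-fold. The mitochondrial ornithine carrier Slc25a15, which serves the same cycle, rose 6.72-fold, from 9.73 and 9.76 to 12.53 and 12.45 (limma adjusted p = 1.4e-09). Of 43 genes on the list 23 were not tested, among them Cps1, Otc and Arg1, so the urea cycle was covered only in part.

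Of 150 solute carriers tested 28 rose (18.7%) and 17 fell (11.3%), shares near those of all genes. Without DMSO array B 11 of them fell. Slc25a45, a mitochondrial carrier, rose 4.16-fold (limma adjusted p = 1.1e-07). Slc7a2, which takes up arginine, lysine and ornithine, stood at 10.07 and 9.96 under forskolin and at 6.79 and 6.88 under DMSO, 9.03-fold higher (limma adjusted p = 1.3e-09). The DMSO arrays of 2 h held Slc7a2 at 9.96 and 10.12, however, and against those the difference was -0.03 (limma adjusted p = 0.88). Slc25a37, the mitochondrial iron importer, fell 2.70-fold, with 1 forskolin array above background (limma adjusted p = 1.5e-06).

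Genes of glycolysis and glycogen rose more often than they fell. Ppp1r3c, which tethers protein phosphatase 1 to glycogen, rose 9.27-fold (10.31 and 10.22 against 7.14 and 6.97, limma adjusted p = 3.6e-10). Pfkfb2 and Pfkfb3, 2 forms of the enzyme that sets the level of fructose-2,6-bisphosphate, moved in opposite directions: Pfkfb2 rose at least 1.45-fold from below background (limma adjusted p = 0.00025) and Pfkfb3 fell 2.71-fold (7.08 and 7.32 against 8.68 and 8.60, limma adjusted p = 3.2e-06). Of the enzymes that act in the direction of glucose use, hexokinase Hk2 fell 1.92-fold (limma adjusted p = 5.7e-05) while the reversible Tpi1 rose 1.53-fold (limma adjusted p = 0.00061). Slc2a1, a glucose transporter, rose 1.35-fold against the 4 h DMSO arrays (limma adjusted p = 0.0025), and gave 0.05 against those of 2 h (limma adjusted p = 0.67). In all 12 of 24 genes of glycolysis and glycogen rose (50%) and 3 fell (12.5%), with a median of 0.24. Without any 1 of the 4 arrays the 12 became 7, and under the median scaling over all probes 4.

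Genes of fatty acid oxidation and fuel choice rose in part. Pdk4, which shuts pyruvate out of the citrate cycle, rose 3.69-fold (9.49 and 9.46 against 7.67 and 7.51, limma adjusted p = 4.2e-07). Cpt2, which completes the entry of fatty acids, rose 2.86-fold (12.75 and 12.98 against 11.16 and 11.53, limma adjusted p = 2.6e-06), and Acot3, an acyl-CoA thioesterase of peroxisomes, went from below background to 8.07 and 8.15, at least 2.78-fold higher (limma adjusted p = 4e-09). The mitochondrial thioesterase Acot2 fell 1.60-fold (limma adjusted p = 0.0014) and the ketone body enzyme Bdh1 fell 1.52-fold (limma adjusted p = 0.0014), though its second probe did not pass. Against the DMSO arrays of 2 h Acot2 gave -0.06 (limma adjusted p = 0.76) and Bdh1 -0.26 (limma adjusted p = 0.098). Of 29 genes tested 10 rose (34.5%) and 5 fell (17.2%; median 0.30). Under the median scaling over all probes 6 rose, and without forskolin array A or DMSO array B 3 fell. In the citrate cycle 8 of 25 genes rose (32.0%) and 1 fell (4.00%; median 0.27), the largest being fumarase, Fh1, at 4.37-fold (11.58 and 11.12 against 9.56 and 8.88, limma adjusted p = 0.00039).

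In lipid synthesis 11 of 38 genes rose (28.9%) and 0 fell, with a median of 0.20, or 0.13 with bounds. The fatty acid elongases Elovl2 and Elovl6 rose 2.95-fold (limma adjusted p = 0.00012) and 2.82-fold (limma adjusted p = 3e-05), and Dgat1, which makes triglyceride, rose 2.50-fold (limma adjusted p = 1.8e-05). Stard4, a carrier of cholesterol between membranes, rose 1.98-fold, and the cholesterol synthesis enzyme Sqle rose 1.67-fold. Scd1 (-0.01) and Srebf2 (-0.03) did not pass. Without DMSO array A, or under the median scaling over all probes, 7 genes of the list rose and not 11.

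Bile acid genes rose in 8 of 16 cases (50%), and 2 fell (12.5%; median 0.34). Klb, the coreceptor through which hepatocytes answer the fibroblast growth factors of fasting and feeding, stood at 9.56 and 9.64 under forskolin and at 6.41 and 6.57 under DMSO, below background. It was at least 7.79-fold higher (limma adjusted p = 4.9e-10). Cyp8b1, the 12-hydroxylase that sets the ratio of bile acids, rose at least 1.37-fold, and the uptake carrier Slco2b1 at least 1.06-fold, both from below background. Abcg5, of the sterol exporter, rose 2.60-fold (limma adjusted p = 0.00015), and Slc27a2, a fatty acid and bile acid ligase, rose 2.53-fold (limma adjusted p = 3.8e-05). The exporters of the basolateral membrane went the other way: Abcc4 fell 1.54-fold (limma adjusted p = 0.00086) and Abcc3 fell 1.42-fold (limma adjusted p = 0.0075). The call of Abcc3 was lost without DMSO array B (limma adjusted p = 0.062). Under the median scaling over all probes 5 of the list rose. Among P450 and conjugating enzymes 11 of 43 rose (25.6%) and 4 fell (9.30%), or 2 without DMSO array A or forskolin array A. Among those that rose was Ugt2b35, 2.18-fold (limma adjusted p = 2.2e-06). Ugt1a1, the bilirubin-conjugating enzyme, also rose (limma adjusted p = 2.5e-06) and was above background on both forskolin arrays and neither DMSO array.

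**Figure D3:**
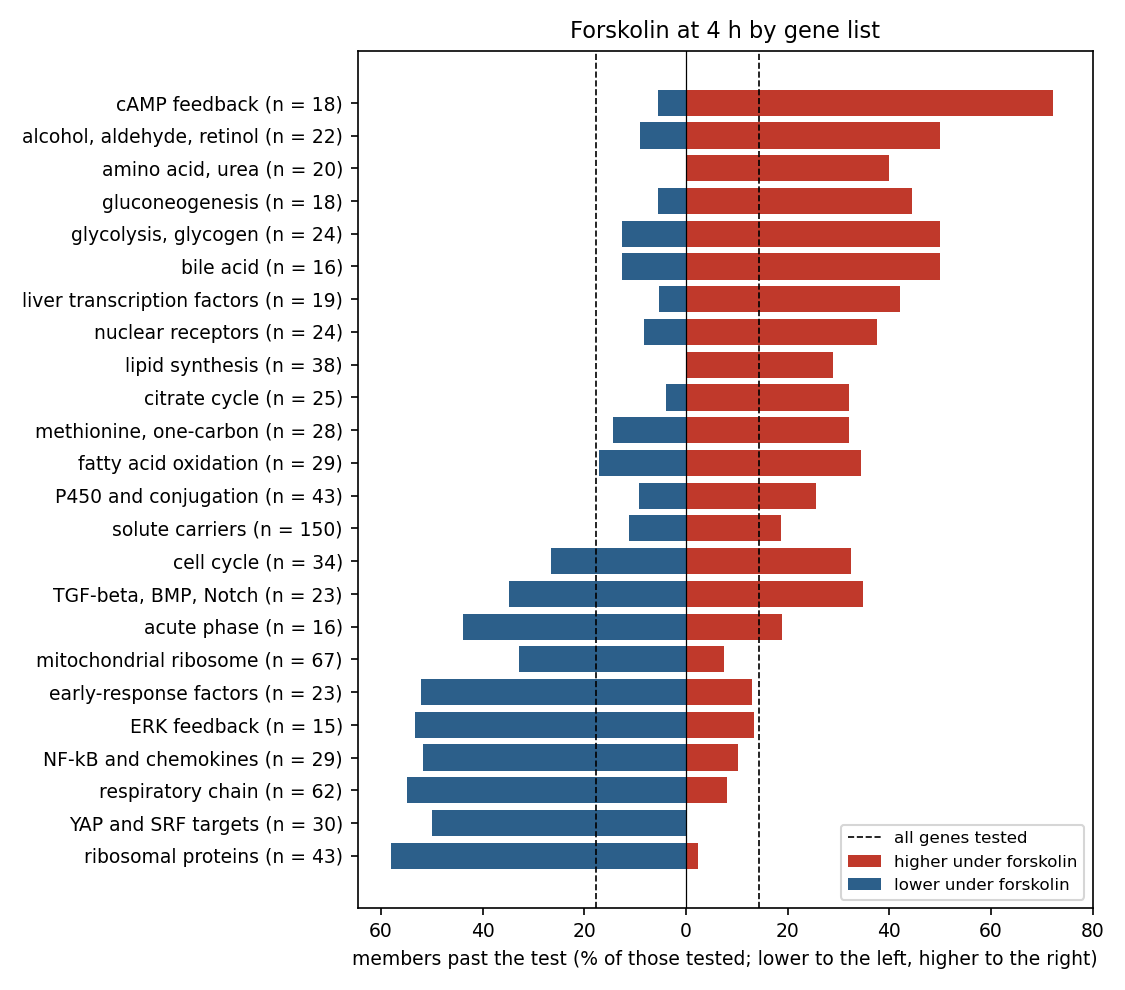
Share of the tested members of 24 gene lists that were higher (right) or lower (left) under forskolin at 4 h, in percent of the members tested, with dashed lines at the shares over all 7746 genes (14.4% and 17.7%). The cyclic AMP feedback list reaches 72.2% to the right, and the lists of ribosomal proteins, respiratory chain, ERK feedback, early-response factors, NF-kB and YAP targets reach 50% to 58.1% to the left.

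Transcription factors that keep liver identity rose more often than they fell. Foxa2 and Foxa3, pioneer factors of liver chromatin, rose 2.78-fold (9.99 and 9.86 against 8.50 and 8.41, limma adjusted p = 6.2e-06) and 2.48-fold (limma adjusted p = 5.8e-07). Klf15, which drives amino acid breakdown in fasting, rose 2.00-fold, and Hnf4a, the central hepatocyte regulator, rose 1.48-fold. Onecut2, a factor of liver and bile duct development, fell 2.14-fold (limma adjusted p = 2.8e-05), but gave 0.06 against the DMSO arrays of 2 h (limma adjusted p = 0.74). In all 8 of 19 such genes rose (42.1%) and 1 fell (5.26%). Of 24 nuclear receptors and their coactivators 9 rose (37.5%) and 2 fell (8.33%), or 1 without DMSO array B or forskolin array B. Rora, an orphan receptor of metabolic and clock genes, rose 3.03-fold to 11.79 and 11.74 (limma adjusted p = 1.8e-06), and Nr1i2, the xenobiotic receptor PXR, rose 1.84-fold. Pparg, the lipogenic receptor, fell 3.21-fold (6.74 and 6.89 against 8.35 and 8.64, limma adjusted p = 3.1e-06), but gave -0.31 against the DMSO arrays of 2 h (limma adjusted p = 0.12).

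The class IIa deacetylases, which cyclic AMP signals bring into the nucleus, moved in both directions. Hdac7 fell 4.21-fold (7.49 and 7.77 against 9.68 and 9.73, limma adjusted p = 5.1e-08). Hdac4 rose 2.27-fold (8.66 and 8.61 against 7.45 and 7.46, limma adjusted p = 0.00061), and Hdac5 rose 1.49-fold (9.83 and 9.61 against 9.02 and 9.27, limma adjusted p = 0.0039). No array of one treatment fell within the range of the other for these 3 genes. Of the other 10 deacetylases and sirtuins tested 2 passed, the sirtuins Sirt3 at 0.54 and Sirt7 at 0.41, and 8 did not. A second Sirt3 probe did not pass. The limma adjusted p of Sirt7 was 0.068 without DMSO array A and 0.084 without forskolin array B, and that of Sirt3 was 0.054 without forskolin array A.

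Receptors and brakes of growth factor and growth hormone signalling moved both ways. Socs2 and Cish, both induced by growth hormone and both inhibitors of its signal, fell 5.09-fold (10.10 or less against 12.44 and 12.37, limma adjusted p = 1.5e-09) and 2.26-fold (limma adjusted p = 7.6e-06). Socs3, the brake on interleukin 6 signalling, rose 2.45-fold (limma adjusted p = 9.5e-07). Egfr, the receptor of epidermal growth factor, fell 1.92-fold to 12.33 and 12.09 (limma adjusted p = 2.7e-05), and the pseudokinase Trib3, an inhibitor of Akt, fell 2.06-fold (limma adjusted p = 1.6e-05), with a second probe that did not pass. Of the 22 genes tested 5 rose (22.7%) and 6 fell (27.3%), and without forskolin array B 2 rose. Against the DMSO arrays of 2 h 6 rose and 4 fell. Foxo1, the insulin-inhibited activator of glucose production, rose 1.40-fold (limma adjusted p = 0.016), a call lost without DMSO array A (0.16) or forskolin array B (0.11). Igfbp1, often cited with it, was below background in both groups.

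The single steepest fall was that of Ccn2, and many targets of YAP and SRF fell too. YAP and SRF are transcriptional regulators that respond to cell shape and the actin skeleton. Ccn2, a matrix-associated signalling protein, stood at 13.70 and 13.68 under DMSO, among the bright genes of the array, and at 8.83 and 9.0 under forskolin. It fell 27.5-fold (log2 -4.78, SE 0.14, limma adjusted p = 1.3e-10), the largest fall of any gene tested. Its relative Ccn1 fell 9.60-fold (6.70 and 6.20 against 9.73 and 9.69, limma adjusted p = 1.1e-08), with 1 forskolin array above background. Ankrd1, a nuclear partner of sarcomere proteins, fell 4.83-fold (limma adjusted p = 1.1e-07), Fjx1, a secreted kinase-like protein, at least 4.70-fold to below background (limma adjusted p = 4.9e-06), Fhl2 at least 3.50-fold and the kinase Nuak2 3.01-fold (limma adjusted p = 1.1e-07). Of 30 such genes tested 15 fell (50%) and 0 rose, with a median of -0.40, and Actb, the actin target that is also used as a reference gene, gave 0.04 (limma adjusted p = 0.81). Other Actb probes disagreed with it and with each other, 1 passing upward (3.23) and 1 downward (-0.30). The letters GGAATG, in which the DNA partners of YAP find their core site, were in 52.0% of the 25 promoters of this list and in 14.1% of all, on either strand. The list was chosen as targets and counted whether or not a gene fell, so its share does not describe the falls. Of all genes that fell 14.3% held these letters, and of those that rose 14.8%. They were in 7 of 20 promoters of genes with a fitted log2 of -2 or less.

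Feedback inhibitors of ERK signalling fell. Phlda1, a pleckstrin-domain protein induced by growth factors, stood at 12.57 on both DMSO arrays and at 8.47 and 8.70 under forskolin, 15.9-fold lower (limma adjusted p = 6.2e-11). The ERK phosphatases Dusp6 and Dusp4 fell 4.51-fold (8.89 and 8.67 against 11.02 and 10.89, limma adjusted p = 3.5e-08) and 2.27-fold (limma adjusted p = 4e-06), the latter by 1 of its 2 probes. Etv5, an ETS factor whose level follows ERK activity, fell at least 2.24-fold to below background (limma adjusted p = 9.6e-09), and Ier3 fell 2.84-fold to 11.10 and 11.08 (limma adjusted p = 7.2e-07). Errfi1, an inhibitor of the EGF receptor, rose 1.86-fold (limma adjusted p = 2.4e-05). Of 15 genes tested 8 fell (53.3%) and 2 rose (13.3%), with a median of -0.71, or -0.82 with bounds and 3 genes left out that lay below background in both groups.

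Early-response transcription factors were lower at 4 h in 12 of 23 cases (52.2%) and higher in 3 (13%), with a median of -0.52, or -0.33 with bounds and 3 genes left out. Junb, a subunit of AP-1, fell 6.49-fold (7.51 and 7.45 against 10.15 and 10.20, limma adjusted p = 5e-09). Egr1, a zinc-finger factor induced by growth signals, fell 2.98-fold (9.45 and 9.47 against 11.13 and 10.94, limma adjusted p = 6.2e-06), Klf6 3.09-fold and Klf5 2.88-fold. Zfp36l1, which marks short-lived messengers for decay, fell 2.36-fold (limma adjusted p = 1.8e-06). Jun, another AP-1 subunit, did not pass (0.33, limma adjusted p = 0.10), and Klf4 rose 1.50-fold (limma adjusted p = 0.014), with 1 of its other probes not passing and the call lost without forskolin array A (0.067), forskolin array B (0.052) or DMSO array B (0.088). The AP-1 letters TGANTCA, with N either C or G, were in 4.97% of all promoters, 7.19% of those of genes that fell and 5.81% of those that rose.

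NF-kB targets and chemokines were lower, but here the DMSO cells had moved as well. Tnfaip3, which ends NF-kB signalling, fell 8.46-fold (6.82 and 7.10 against 10.07 and 10.01, limma adjusted p = 1.4e-09). The monocyte attractants Ccl2 and Ccl7 fell 7.33-fold (8.55 and 8.57 against 11.53 and 11.34, limma adjusted p = 4.9e-09) and 6.14-fold (limma adjusted p = 2.3e-09), Cxcl1, which attracts neutrophils, 6.62-fold (8.26 and 8.23 against 10.97 on both, limma adjusted p = 3e-09), Ccl4 at least 3.05-fold and Csf1, the macrophage growth factor, 4.10-fold (limma adjusted p = 3.4e-08). In each the arrays of the groups were apart. Nfkbiz, a nuclear regulator of NF-kB, rose 1.87-fold (limma adjusted p = 0.00032), but fell against the DMSO arrays of 2 h (log2 -0.60, limma adjusted p = 0.0047). Of the 29 genes tested 15 fell (51.7%) and 3 rose (10.3%), with a median of -0.42, or -0.81 with bounds and 7 genes left out that were below background in both groups. From 2 h to 4 h under DMSO alone 24 of the 29 fell and 0 rose. With the DMSO arrays of 2 h as control 25 fell and 0 rose, and the median was -2.30. Kupffer cell and macrophage markers, 8 of 10 of them above background on all 4 arrays and Clec4f and Cd5l below on all, summed to 6535 and 6658 intensity units under forskolin and to 5810 to 6107 under DMSO; their part in these values was not tested.

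Acute phase genes of the hepatocyte fell in 7 of 16 cases (43.8%) and rose in 3 (18.8%; median -0.002). The serum amyloid gene Saa1 fell 1.56-fold (limma adjusted p = 0.00054) and the iron hormone Hamp 1.59-fold (limma adjusted p = 0.0065, and 0.078 without forskolin array B). Without DMSO array A, DMSO array B or forskolin array A 4 genes of the list fell and not 7. Crp rose 2.63-fold (12.44 and 12.40 against 11.06 and 10.98, limma adjusted p = 2e-06), and Fga, a fibrinogen chain, rose 1.92-fold. From 2 h to 4 h under DMSO alone 8 of the 16 fell and 0 rose, and against the DMSO arrays of 2 h 9 were lower and 2 higher, with a median of -0.88. Saa1 gave -1.57 there (limma adjusted p = 1.7e-07) and Hamp -3.53 (limma adjusted p = 3.3e-09). Crp had itself fallen under DMSO, and against the DMSO arrays of 2 h gave 0.09 (limma adjusted p = 0.59), whereas Fga gave 1.10 (limma adjusted p = 6.6e-06). Of 18 interferon response genes 3 rose (16.7%, against 14.4% of all genes) and 5 fell (27.8%, against 17.7%). Among them were Rsad2 (3.05-fold higher, limma adjusted p = 6.9e-07) and the GTPase Irgm1 (2.56-fold lower, limma adjusted p = 7e-07). Without DMSO array A 2 of the interferon genes fell, without DMSO array B 1 rose, and against the DMSO arrays of 2 h 10 fell and 1 rose.

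Cell cycle genes moved in both directions, 11 of 34 higher (32.4%) and 9 lower (26.5%; median 0.16), though 7 were higher under the median scaling over all probes. The D cyclins, which carry growth signals into the cycle, fell: Ccnd2 3.13-fold (7.40 and 7.13 against 8.92 and 8.90, limma adjusted p = 9.3e-07) and Ccnd1 1.95-fold (10.73 and 10.72 against 11.66 and 11.71, limma adjusted p = 9.3e-06). The E cyclins, which open S phase, rose, Ccne1 1.67-fold (limma adjusted p = 0.00054) and Ccne2 at least 1.05-fold (limma adjusted p = 0.0014), and so did the replication helicase subunit Mcm4, 1.48-fold. Bcl2l1, an inhibitor of apoptosis, fell 6.15-fold (8.11 and 8.27 against 10.87 and 10.75, limma adjusted p = 5e-09). Genes of TGF-beta, BMP and Notch signalling were split 8 to 8 among 23 (34.8% each), with 5 higher and 5 lower without DMSO array A and 5 higher without forskolin array A. Hey1, a repressor of the Notch type, rose at least 2.24-fold from below background, the receptor Tgfbr1 rose 2.57-fold to 12.51 and 12.74, and Jag1, a Notch ligand, fell 2.91-fold (limma adjusted p = 0.0012). Among clock genes Arntl, which encodes the activator BMAL1, rose 3.42-fold (9.0 and 8.88 against 7.24 and 7.10, limma adjusted p = 4.5e-05) and the repressor gene Per2 fell 1.81-fold (limma adjusted p = 0.00096), but gave -0.39 against the DMSO arrays of 2 h (limma adjusted p = 0.066). The clock list as a whole had 4 of 14 higher (28.6%, against 14.4% of all genes) and 2 lower (14.3%, against 17.7%). Fewer were higher without DMSO array A, DMSO array B or forskolin array A.

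In matrix turnover 3 of 28 genes rose (10.7%) and 7 fell (25.0%), the largest change being the fall of the urokinase receptor Plaur, 5.36-fold (7.17 and 6.85 against 9.42 and 9.44, limma adjusted p = 7.2e-07). Tissue plasminogen activator, Plat, fell 2.19-fold. Without forskolin array B 4 of the list fell, and without forskolin array A 0 rose. Of the hypoxia genes, Ndrg1 rose with Egln3, 3.07-fold (limma adjusted p = 6.8e-07), and the mTOR inhibitor Ddit4 fell 3.32-fold (limma adjusted p = 3e-05), while 12 of 17 did not pass. On that list 3 rose (17.6%) and 2 fell (11.8%), against 14.4% and 17.7% of all genes. Rhob, a small GTPase, fell 2.22-fold, and the keratin Krt23 rose at least 1.78-fold. Krt23 had fallen under DMSO from 2 h to 4 h, and gave 0.65 against the DMSO arrays of 2 h (limma adjusted p = 0.016).

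Subunits of the respiratory chain and of ribosomes were lower as groups, with small differences shared by many genes. Of 62 respiratory chain genes 34 fell (54.8%) and 5 rose (8.06%), with a median of -0.48, or -0.42 with bounds. Ndufa3, an accessory subunit of complex I, fell 3.40-fold (10.28 and 10.53 against 12.14 and 12.20, limma adjusted p = 2.2e-07), Uqcr11 of complex III 2.36-fold (limma adjusted p = 8.7e-06) and Atp5mpl of ATP synthase 2.30-fold (limma adjusted p = 1.2e-06). The core subunits of ATP synthase went the other way, Atp5a1 rising 1.75-fold (limma adjusted p = 0.021) and Atp5b 1.46-fold (limma adjusted p = 0.011). Both calls were lost without DMSO array B (0.23 and 0.076), and 1 or the other without either forskolin array. Of 43 cytosolic ribosomal protein genes 25 fell (58.1%) and 1 rose (2.33%), with a median of -0.39. Rps29 fell 2.65-fold (14.05 and 14.15 against 15.50 and 15.52, limma adjusted p = 4.7e-06), Rpl38 3.19-fold (limma adjusted p = 2.8e-06) and Rps28 2.61-fold (limma adjusted p = 6e-06), while Rps15a rose at least 1.22-fold (limma adjusted p = 0.0066, and 0.068 without DMSO array B) and Rplp0, at 0.06 (limma adjusted p = 0.79), did not pass. In the mitochondrial ribosome 22 of 67 genes fell (32.8%) and 5 rose (7.46%; median -0.19). Without DMSO array A the ribosomal proteins that fell were 16 and those of the mitochondrial ribosome 14, as without forskolin array A. The proteasome had 3 of 42 genes lower (7.14%) and 5 higher (11.9%), or 2 to 3 higher when any 1 of the 4 arrays was left out.

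Falls were more frequent among short genes, within the respiratory chain list and outside these lists. By genomic span in the RefSeq gene table, which is the length of the locus and not of the messenger, 39.3% of the 262 genes up to 2 kb fell and 6.87% rose, with a median of -0.28. From 2 to 5 kb 29.9% fell, and in the 5 classes above 5 kb the share ran from 13.5% to 16.9%. Within the respiratory chain 16 of 20 genes up to 5 kb fell (80.0%) and 18 of 42 longer ones did (42.9%). Outside the 5 lists compared (respiratory chain, cytosolic and mitochondrial ribosome, proteasome and citrate cycle) 273 of 915 short genes fell (29.8%) and 1015 of 6656 longer ones (15.2%). The same class of genes up to 2 kb had a median of -0.46 in the shHDAC45 cells at 4 h and of 0.16 in the control-virus cells at 2 h. In 2 h cells 17 of the 62 respiratory chain genes rose and 0 fell. Against the DMSO arrays of 2 h the 34 falls of the respiratory chain became 16, and the 25 of the ribosomal proteins 22. The part of gene or probe length in these results was not tested.

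**Figure D4:**
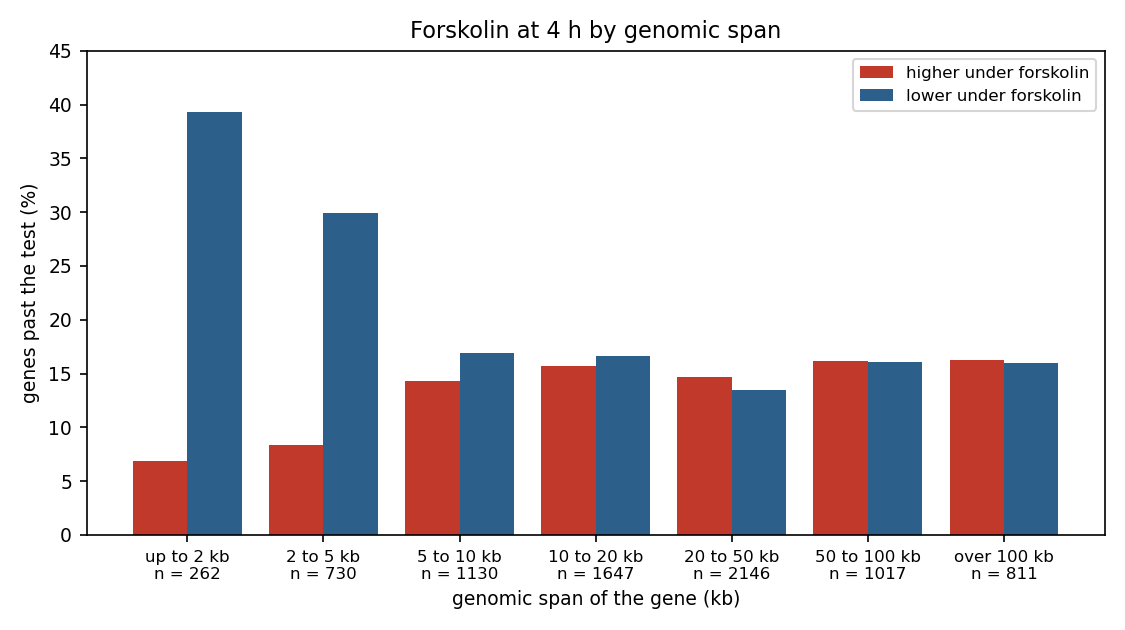
Share of genes (percent, vertical axis) that were higher (red) or lower (blue) under forskolin at 4 h in 7 classes of genomic span (kb, horizontal axis), with the number of genes under each class. The share of lower genes is 39.3% in the shortest class and 13.5% to 16.9% in the classes above 5 kb.

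Genes that crossed the background level form a separate description, since their fold is only a bound. The 8 with the largest bound among those that appeared were G6pc, Mmd2, Cyp17a1, Etnppl, Klb, Shisa2, Gnmt and Adh7. Shisa2, an inhibitor of receptor maturation in the endoplasmic reticulum, stood at 9.18 and 9.26 under forskolin and at 6.32 and 6.58 under DMSO, at least 5.99-fold higher (limma adjusted p = 1e-07). Among those that went below background the largest bounds were those of Fjx1, Frmd6, Fhl2, Smpd3, Ccl4, Tnfaip2, Ifi27l2a and Efnb2. Frmd6, an upstream component of the Hippo pathway, fell at least 4.52-fold (6.22 and 5.90 against 8.77 and 8.59, limma adjusted p = 2.5e-08), and Smpd3, a neutral sphingomyelinase, at least 3.47-fold (limma adjusted p = 1.9e-06). Efnb2, an ephrin ligand, fell at least 2.37-fold (limma adjusted p = 1.2e-06).

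The 4 h response was then set beside that of control-virus cells at 2 h, which has its own forskolin and DMSO arrays. The forskolin effect differed between the times for 2061 genes (26.6% of those tested; interaction of treatment and time, limma adjusted p under 0.05). Of the 1112 genes higher at 4 h, 266 were also higher at 2 h (23.9% of the 4 h genes and 32.5% of the 2 h genes) and 83 were lower (7.46% of the 4 h genes). Of the 1369 lower at 4 h, 260 were lower at 2 h (19.0% and 31.2%) and 206 were higher (15% of the 4 h genes). Among the genes that did not pass at 4 h, 6.57% were higher and 9.31% lower at 2 h. Ppp1r3c, above background on all these arrays, rose by 3.22 at 2 h and by 3.21 at 4 h (difference -0.01, SE 0.15, limma adjusted p = 0.98). Among genes of metabolism Aldh4a1 (limma adjusted p = 0.68), Pdk4 (0.35) and Cbs (0.24) did not pass the test of a difference either. A p that misses the threshold does not show that effects were alike, here or below, and the SE gives what could be seen.

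Several early cyclic AMP genes had a larger effect at 2 h than at 4 h. Sik1 stood at 9.86 and 9.97 after 2 h of forskolin and at 7.47 and 7.60 after 4 h, and the effect at 4 h minus that at 2 h was -2.40 (SE 0.26, limma adjusted p = 2.8e-05). Nr4a2 differed by -2.53 (SE 0.13, limma adjusted p = 7.8e-08), Hey1 by -3.26 (SE 0.15, limma adjusted p = 2.4e-08), Crem by -1.23 (limma adjusted p = 0.00072) and Pck1 by -1.67 (SE 0.28, limma adjusted p = 0.00073). Each was still higher than DMSO at 4 h. For other genes the effect was larger at 4 h. Fbp1 gave -0.26 at 2 h (limma adjusted p = 0.21) and 2.12 at 4 h, a difference of 2.38 (SE 0.19, limma adjusted p = 2.8e-06). Acot3, below background in both groups at 2 h, differed by 2.93, Slc25a45 by 1.89 (SE 0.18, limma adjusted p = 9.5e-06) and Foxa2 by 1.40 (SE 0.21, limma adjusted p = 0.00028). G6pc stood at 10.70 and 11.04 after 2 h of forskolin and at 12.79 and 12.70 after 4 h, with effects of 4.90 and 6.57 (difference 1.67, SE 0.20, limma adjusted p = 5.2e-05). For Sik1, Nr4a2, Hey1, Pck1, Acot3 and G6pc the DMSO arrays were below background at both times, so these effects and differences are those of fitted values and not of measured folds.

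Other genes changed sign between the times. Junb rose by 2.05 at 2 h (10.85 and 11.08 against 8.77 and 9.07) and fell by 2.70 at 4 h, a difference of -4.74 (SE 0.17, limma adjusted p = 4.5e-09). Lmcd1 changed from 0.65 to -3.01 (difference -3.66, SE 0.17, limma adjusted p = 2.5e-08), and Hilpda, a lipid droplet protein induced by hypoxia, from 2.72 to -0.54 (difference -3.26, SE 0.14, limma adjusted p = 1.1e-08), the latter -0.13 with the DMSO arrays of 2 h as control (limma adjusted p = 0.33). Ndufa3 changed from 1.01 to -1.76 (difference -2.77, SE 0.17, limma adjusted p = 2.1e-07) and Rps29 from 0.90 to -1.41 (difference -2.31, limma adjusted p = 3.1e-06). The control arrays took part in this. From 2 h to 4 h under DMSO 468 genes rose and 439 fell, Junb by 1.26 and Lmcd1 by 1.44 upward, Ndufa3 by 1.06 upward. Of the 2481 genes called at 4 h 1831 (73.8%) kept their call with the DMSO arrays of 2 h as control and 19 turned, 10 of the higher and 9 of the lower genes. For G6pc, Cyp17a1, Adh1 and Ccn2 the DMSO difference between the times was 0.66 or less and the forskolin effect stood with either control (6.78, 5.17, 4.56 and -4.12 against the 2 h arrays).

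**Figure D5:**
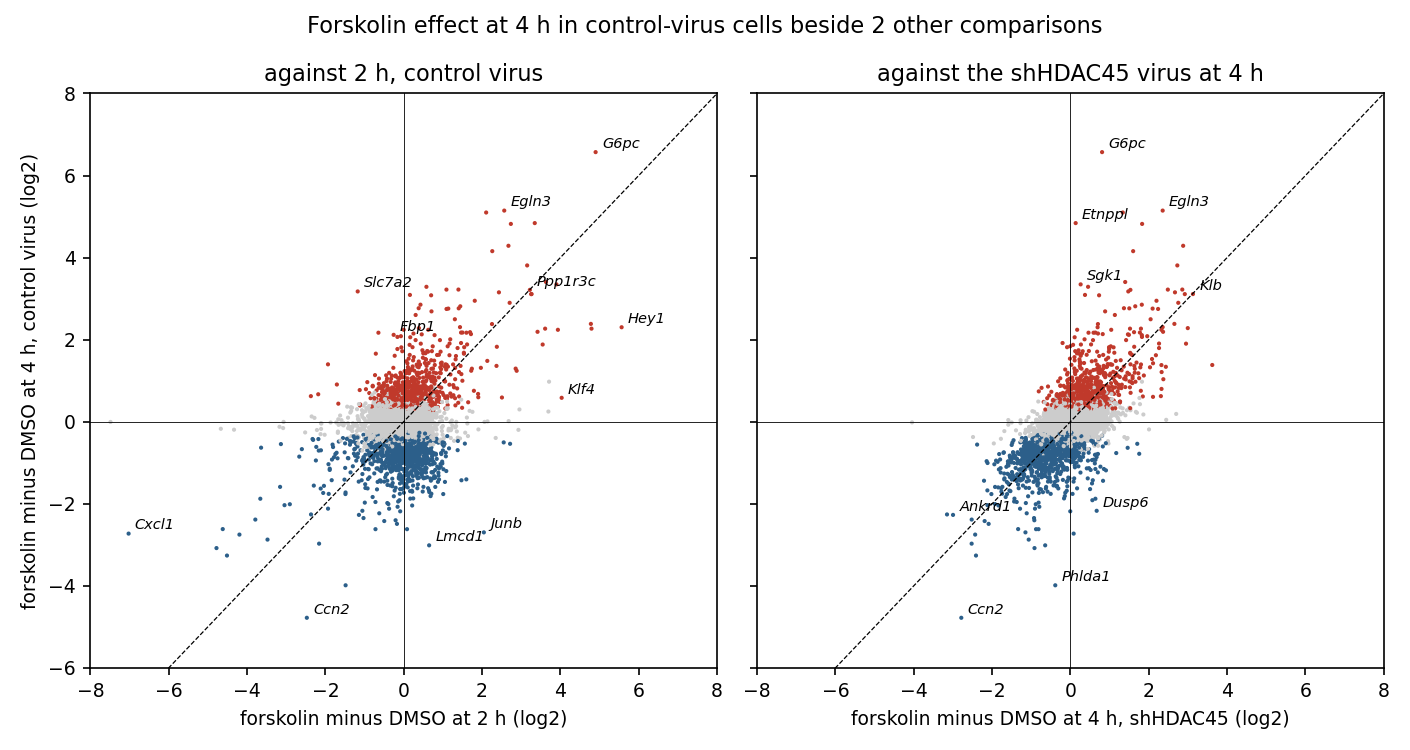
Forskolin effect at 4 h in control-virus cells (log2, vertical axis) against the effect at 2 h in control-virus cells (left) and at 4 h in shHDAC45 cells (right), 1 point a gene, red and blue where the gene passed the test at 4 h in control-virus cells, with a dashed line of equal effect. Junb and Klf4 lie far to the right of that line at 2 h, and G6pc, Etnppl and Sgk1 lie far above it beside the shHDAC45 cells.

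Beside cells with shRNA against Hdac4 and Hdac5, the 4 h response differed for 664 genes (8.57% of those tested; interaction of treatment and virus). Without 1 array the count ran from 418 (without DMSO array A of the control virus) to 511, and it was 431 and 439 without forskolin array A or B of the shHDAC45 cells. Of the 1112 genes higher in control-virus cells 578 were higher in shHDAC45 cells too (52.0%, and 43.0% of the genes higher there). Of the 1369 lower genes 836 were lower there (61.1% and 60.1%). In 45 genes the signal was lower in control-virus and higher in shHDAC45 cells, and in 19 the reverse held. Among the genes that did not pass in control-virus cells, 13.7% were higher and 10.2% lower in shHDAC45 cells. Under forskolin G6pc stood at 12.79 and 12.70 in control-virus cells and at 6.80 and 6.72 in shHDAC45 cells, and its fitted effects were 6.57 and 0.81 (difference 5.76, SE 0.20, limma adjusted p = 4.3e-09). Cyp17a1 stood at 10.10 and 10.32 and at 6.50 and 6.43 (difference of effects 3.76, SE 0.18, limma adjusted p = 6.4e-08). Etnppl and Acot3, at 10.30 and 10.04 and at 8.07 and 8.15 in control-virus cells, were below background under forskolin in shHDAC45 cells (differences 4.71 and 2.72, limma adjusted p = 1.5e-07 and 2.1e-06). All 4 genes were below background under DMSO with either virus, so their effects are those of fitted values and not of measured folds. Sgk1 and Ass1 were above background on all these arrays. Sgk1 rose by 3.35 and gave 0.26 in shHDAC45 cells (difference 3.09, SE 0.16, limma adjusted p = 1.2e-07), and Ass1 gave 1.92 and -0.20 (difference 2.12, limma adjusted p = 4.5e-07). Under DMSO Ass1 stood at 10.27 and 10.22 in control-virus cells and higher, at 11.35 and 11.42, in shHDAC45 cells.

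Of the 18 cyclic AMP feedback genes tested, 3 had a positive difference past this test and 1 a negative one. Dusp1 was among the former (0.56, SE 0.16, limma adjusted p = 0.047). So was Nr4a2, by fitted values (0.47, SE 0.13, limma adjusted p = 0.049). Other genes that rose did not pass it. Ddc rose by 3.22 and 2.86 (difference 0.36, SE 0.25, limma adjusted p = 0.42). Ppargc1a, Sik1 and Klb were below background under DMSO with either virus, and their fitted differences were 0.19, -0.27 and -0.02 (limma adjusted p = 0.70, 0.59 and 0.96). Under forskolin Ppargc1a stood at 7.89 and 7.94 in shHDAC45 cells, Sik1 at 8.43 and 8.78 and Klb at 8.43 and 8.49. Among the genes that fell, Phlda1 gave -3.99 and -0.39 (difference -3.60, SE 0.15, limma adjusted p = 2.2e-08), Dusp6 -2.17 and 0.67 (difference -2.84, SE 0.17, limma adjusted p = 4.5e-07) and Cxcl1 -2.73 and 0.08 (difference -2.81, SE 0.17, limma adjusted p = 4.4e-07). In shHDAC45 cells Cxcl1 stood at 15.14 and 15.44 under DMSO and at 15.30 and 15.44 under forskolin. Its control-virus DMSO arrays stood at 10.97. Ankrd1 fell in both, by 2.27 and by 3.0 (difference 0.73, SE 0.20, limma adjusted p = 0.041). The 2 viruses were on separate arrays with their own DMSO controls. Under DMSO at 4 h the signals of some genes already differed between the viruses. Hnf4a stood at 11.51 and 11.25 in control-virus cells and at 8.89 and 8.82 in shHDAC45 cells. Il1b stood at 4.88 and 4.89, below background, and at 9.41 and 9.60. Dusp1 lay closer, at 11.67 and 11.78 and at 11.69 and 11.58. The part of such starting levels in the differences of effect was not tested.

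Of the markers of other liver cells some rose and some fell. Leukocyte markers were below background on all 4 arrays for each of the 11 on the array. Endothelial markers, 5 of 11 above background on all 4 arrays and Stab1, Clec4g, Kdr, Tek and Oit3 below on all, summed to 1550 to 1583 intensity units under forskolin and 1293 to 1437 under DMSO, and Lyve1 rose 1.98-fold (limma adjusted p = 0.00036). Of stellate and fibroblast markers 3 of 10 were above background, with sums of 8084 to 8977 and 9130 to 9441, and Lrat, Des, Pdgfrb and Lum were below on all 4 arrays, while Reln rose 1.73-fold (limma adjusted p = 0.0019). Of the macrophage markers Cd14 rose 1.36-fold (limma adjusted p = 0.0034) and Lyz2 1.27-fold (limma adjusted p = 0.04), and C1qa fell 1.45-fold (limma adjusted p = 0.0049). The call of Lyz2 was lost without any 1 of the 4 arrays (0.051 to 0.20) and that of C1qa without DMSO array A (0.065), and against the DMSO arrays of 2 h Cd14 gave -1.88, Lyz2 -0.05 and C1qa -0.03. Of bile duct markers 4 of 7 were above, with sums of 5614 to 6129 and 7193 to 7614; Sox9 fell 1.93-fold (limma adjusted p = 1.3e-05) and Prom1 rose 2.57-fold (limma adjusted p = 2e-06). Hepatocyte markers summed to 93360 to 96650 under forskolin and 81730 to 86570 under DMSO. Of the 9 hepatocyte markers tested 4 rose (44.4%) and 2 fell (22.2%). Those that fell were Ttr and Apoc3, the latter 1.79-fold (limma adjusted p = 0.0013). The part of other cells in the results was not tested.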

How the data were processed

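The members and gene lists were chosen with earlier results of these data known. Biotin-labelled cRNA was hybridised to 16 Illumina arrays, 2 in each of 8 groups, and GenomeStudio gave the bead intensities, per the submitters' processing notes (its version not given in the sources used here). The deposited intensity of each probe is linear and not normalized, and the deposited p-value beside it is its detection p, per the file headers. The authors' normalized intensity values of the same arrays served as an alternative.

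Intensities were background-corrected and quantile-normalised with neqc (offset 16, negative controls inferred from detection p) in limma 3.58.1 (R 4.3.3). Of 24613 probes 20984 name 1 gene, 1 several and 3628 none in the platform annotation. Kept were 10439 with detection p under 0.01 on at least 2 arrays, 9308 of them with 1 gene. For the 1293 genes with several kept probes the brightest was used, and 467 of 1562 other probes differed from it in call. One model of 8 group means (8 residual and 4.6 prior degrees of freedom) gave two-sided moderated tests, adjusted by Benjamini-Hochberg over 7746 genes at 0.05.

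A group below background on both arrays has only a bound: "at least N-fold" compares the bright group's mean with, on each dim array, the higher of the dimmest signal above background and the probe's own. List medians are also given with such genes at their bound. Named were the 12 largest rises and falls, up to 6 members a direction of each list by p, a set of fixed genes, the 8 largest of each interaction and direction, and the 8 largest bounds; members named by role are given with their values. Alternatives changed background correction, scaling, source of values, filter, probes, arrays in the fit, variance prior, array letter as a term and control arrays, and left out each array in turn. In data simulated from the main comparison over 7746 genes, with 50 genes changed at each size, the test recovered 36% at a log2 change of 0.5, 86% at 1, 98% at 2 and 100% at 3, and 7 of its 167 calls were false. No transcript lengths were used, so levels of different genes are not compared.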

Additional observations from a re-analysis of the deposited data

Results flagged for a closer look

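The effect of forskolin in control-virus cells differed between 4 h and 2 h for 2061 genes by the limma interaction test, and the effect at 4 h differed between the viruses for 664 genes. The values below are the differences of those effects on the log2 scale, each past its interaction test at a limma adjusted p under 0.05.

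In 4 genes the effect at 4 h lay above that at 2 h by the widest margins. The chemokine Cxcl5 was higher by 7.48, with -7.49 at 2 h and -0.01 at 4 h, where Cxcl5 was below background in both groups. Vnn3, a pantetheinase, was higher by 4.50 (-4.67 and -0.17), and Cxcl1 by 4.30. From 2 h to 4 h under DMSO Cxcl5 fell by 7.46 and Vnn3 by 4.30. Slc7a2 was higher by 4.35, with -1.17 at 2 h and 3.17 at 4 h.

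For another 4 the effect at 4 h lay below that at 2 h, with a difference of -4.74 for Junb, -3.66 for Lmcd1, -3.45 for Klf4 and -3.45 for C2cd4a, a nuclear protein induced by inflammation. C2cd4a gave 3.69 at 2 h and was below background in both groups at 4 h.

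Between the viruses the effect at 4 h was larger in control-virus cells for G6pc by 5.76, for Etnppl by 4.71 and for Cyp17a1 by 3.76. Csf2, a growth factor of granulocytes and macrophages, differed by 4.03, being below background in both control-virus groups (-0.02) and giving -4.04 in shHDAC45 cells. The effect was lower in control-virus cells for Phlda1 (difference -3.60), Dusp6 (-2.84), Cxcl1 (-2.81) and Olfml2b, an extracellular matrix protein (-2.54, with -0.78 in control-virus and 1.76 in shHDAC45 cells).

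Probes that name no single gene were outside the comparison of genes. Of 1131 such probes above the filter 354 (31.3%) passed the same limma test at 4 h, 158 higher and 196 lower, a share close to the 32.0% of named genes. They are not identified here.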

How the results depend on the processing

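The count of genes past the test at 4 h, 2481, was 2656 without background correction, 2447 under median scaling, 2089 under median scaling over all probes (chosen after seeing the data), 2663 with the authors' normalized values, 2485 with genes detected on both arrays of a compared group, 2329 with no filter on dim probes, 2827 over all probes, 1939 with only the compared arrays, 2664 with a trended robust variance prior, 1798 to 1936 without 1 array, and 2949 with the DMSO arrays of 2 h as control. The count that differed between the times, 2061, ran from 1703 to 2244 over these settings and from 1586 to 1738 without 1 array, and the count that differed between the viruses, 664, from 463 to 862 and from 418 to 511. Positive differences were 47.3% of the former and 44.0% of the latter, and 66.0% and 22.0% under median scaling over all probes. Letters A and B of the array names do not say what they mark. The deviations of same-lettered arrays from their group means correlated at 0.30 between the groups compared and at 0.049 to 0.31 over 28 pairs of groups, 25 of them over 0.1. Same-lettered arrays thus tended to deviate together, but not in every pair of groups, and the letters were not taken as pairs. With the letter as a replicate block 2801, 2416 and 880 genes passed, and none of the 208 genes named changed call. Under median scaling over all probes 11 of the 208 lost their call, and 5 to 8 did when 1 array was left out. Against the DMSO arrays of 2 h 13 lost it and 8 changed sign. Of the latter Cd14 (-1.88), Nfkbiz (-0.604) and Ttr (0.31, limma adjusted p = 0.018) passed in the other direction. Lyz2 (-0.052), Csad (0.098), Onecut2 (0.061), Mat1a (-0.065) and Slc7a2 (-0.029) lay near 0 and did not pass (limma adjusted p from 0.56 to 0.88). The cause of these changes was not tested. Signal over background limits what dim genes can show, since 7746 of the genes on the array passed the filter and the rest have no value here.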

Other observations

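Stress and secretion genes were not described above. Of 27 genes of the unfolded protein and amino acid stress responses 4 rose (14.8%, against 14.4% of all genes) and 5 fell (18.5%, against 17.7%), with a median of -0.06, and 2 rose without DMSO array A and 3 fell without forskolin array A. Xbp1, a factor that enlarges the secretory apparatus, rose 1.39-fold (13.42 and 13.61 against 13.02 and 13.05, limma adjusted p = 0.0022), but gave 0.14 against the DMSO arrays of 2 h (limma adjusted p = 0.28). Nupr1, a stress-induced nuclear protein, fell 2.14-fold (8.38 and 8.41 against 9.49 on both DMSO arrays, limma adjusted p = 5.3e-06). Psat1, an enzyme of serine synthesis, fell 1.57-fold (limma adjusted p = 0.00017) by 1 of its 2 probes. Of 17 heat shock genes 3 rose (17.6%) and 0 fell, with a median of 0.09. They were led by the mitochondrial chaperone Hspa9, 1.87-fold (13.52 and 13.30 against 12.57 and 12.44, limma adjusted p = 2e-05), and by the cochaperone Bag3, 1.59-fold (limma adjusted p = 0.00026).

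Among 27 genes of coagulation and complement 5 rose (18.5%) and 3 fell (11.1%), with a median of 0.13, and 3 rose without DMSO array A or DMSO array B, and 1 fell without DMSO array B or forskolin array B. Over all genes tested 14.4% rose and 17.7% fell, and the shares of the lists in this paragraph stand beside these. Serpinf1, a secreted protein that restrains blood vessel growth, rose 1.44-fold (13.39 and 13.48 against 12.89 and 12.93, limma adjusted p = 0.0012). Of 27 genes of autophagy and the lysosome 5 rose (18.5%) and 3 fell (11.1%), with a median of 0.08, and 3 rose without forskolin array A and 2 without DMSO array B. Sqstm1, which brings cargo to the autophagosome, rose 1.46-fold (14.74 and 14.91 against 14.27 and 14.29, limma adjusted p = 0.00072), and Tfe3, a factor that drives lysosome genes, fell 1.72-fold (9.08 and 9.01 against 9.88 and 9.77, limma adjusted p = 0.00011). The limma adjusted p of Xbp1, Serpinf1 and Sqstm1 was 0.28, 0.13 and 0.27 under the median scaling over all probes. Of 28 genes of actin, keratin and tubulin 5 rose (17.9%) and 7 fell (25.0%), with 1 to 2 higher without DMSO array A, DMSO array B or forskolin array B.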
